A study of Mus musculus with 4 samples.

Results

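Cholesterol and fatty acids are built from acetyl-CoA in a pair of pathways that share a controller, and their genes were followed here in mouse lenses with a conditional knockout of the RNA-binding protein Celf1. The genes were taken by name from a list of 35 enzymes, carriers and regulators, of which 32 had a probe under their symbol on the array. Of these, 30 genes had a probe detected above background in at least 2 of the 4 samples and were tested, among 11516 genes tested in all. They fell into 17 genes of the sterol arm, 8 genes of the fatty acid arm and 5 regulators. Hmgcs1, Fdft1 and Acaca had no probe under their symbol. Fasn, the fatty acid synthase, was detected in 1 sample (cKO A) and Scd1 in none, so that the arm was read without its central synthase.

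The lenses came from mice at postnatal day 6, and RNA of 1 lens was put on each Illumina MouseWG-6 v2.0 BeadChip array. The Celf1 cKO mice (n = 2, replicates A and B) carried the Pax6GFPCre transgene, a floxed Celf1 allele in which exon 5 can be removed, and a Celf1 lacZ knock-in allele (lacZKI) that is null in the whole animal. The Control mice (n = 2, replicates A and B) were Celf1 lacZKI/+, so that both groups carried 1 lacZKI allele and Control lenses were heterozygous rather than wild-type. All mice were of a mixed C57BL/6J and FVB background. The Cre of this line is made from the lens placode on and also in the pancreatic lineage, and the labels list no Cre or floxed allele for the Control mice. With 1 lens a sample, p-values measure the spread between these lenses.

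Sterol synthesis starts with acetyl-CoA, passes through mevalonate and farnesyl diphosphate to squalene, and ends with the closing and trimming of the sterol rings. Fatty acid synthesis also starts with acetyl-CoA, which ATP citrate lyase makes from citrate and acetyl-CoA synthetase from acetate, and the chains are then elongated and desaturated. The transcription factors encoded by Srebf1 and Srebf2, the sterol regulatory element-binding proteins (SREBPs), switch on genes of both arms. Scap escorts them to the Golgi, where they are cut and released, and the Insig proteins hold Scap back in the endoplasmic reticulum when sterol is plentiful. Lens fiber cell membranes are known for a very high cholesterol content, and inherited defects of sterol synthesis can cause cataracts.

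The promoters of 25 of the 30 genes were in a RefSeq table (GRCm38.p6), and the 250 bases before each start site were searched on both strands for letters linked to SREBPs and their partner NF-Y. These were TCACNCCA, the core of a sterol regulatory element, TCACGTGA, an E-box form, and CCAAT, the box of NF-Y, which the first motif can run into. Of the 14 sterol genes with a window, 13 held CCAAT in at least 1 window, against 10133 of 27025 genes (37.5%) in the whole table. It stood in 3 of 6 fatty acid genes and 4 of 5 regulators. TCACNCCA was found for Msmo1 and Srebf2, against 4.20% of all genes, and TCACGTGA for no member, against 0.907% of all genes. A match describes the letters and is not a mapped binding site. Some genes have several windows, and these counts take a gene once.

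Stretches of these promoters are shown for members whose values are described further on, 5′ to 3′ on the strand of the gene, with every motif match in capitals (ATTGG is CCAAT on the other strand). Mvk is shown for its 5 CCAAT matches, of which 4 lie in the stretch, Msmo1 and Srebf2 for the TCACNCCA matches, and Acly, Acss2 and Elovl5 because they are the fatty acid genes called higher in cKO lenses. The stretches lie at chr5:114444149-114444268 (Mvk, plus strand), chr8:64733718-64733785 (Msmo1, minus strand), chr15:82147077-82147144 (Srebf2, plus strand), chr11:100528001-100528120 (Acly, minus strand), chr2:155517923-155518042 (Acss2, plus strand) and chr9:77917245-77917364 (Elovl5, plus strand).
Mvk: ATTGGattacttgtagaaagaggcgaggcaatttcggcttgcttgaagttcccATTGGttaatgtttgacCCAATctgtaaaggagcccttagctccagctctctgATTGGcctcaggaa
Msmo1: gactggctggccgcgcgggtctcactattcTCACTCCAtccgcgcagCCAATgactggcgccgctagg
Srebf2: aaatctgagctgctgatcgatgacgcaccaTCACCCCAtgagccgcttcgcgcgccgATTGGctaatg
Acly: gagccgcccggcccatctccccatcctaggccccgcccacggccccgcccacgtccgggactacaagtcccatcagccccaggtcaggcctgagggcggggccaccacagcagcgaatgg
Acss2: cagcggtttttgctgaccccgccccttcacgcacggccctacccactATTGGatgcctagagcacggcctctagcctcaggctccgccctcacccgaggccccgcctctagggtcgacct
Elovl5: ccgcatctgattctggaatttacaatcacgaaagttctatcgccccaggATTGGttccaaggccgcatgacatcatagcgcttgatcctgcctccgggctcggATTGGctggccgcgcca
The Mvk, Acly, Acss2 and Elovl5 stretches end at the base before the start site. The TCACNCCA match began at base -177 for Msmo1 and at base -162 for Srebf2. The Acly window held none of the 3 motifs.

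Before the members, the labels and the arrays were checked. Celf1, listed under its older name Cugbp1, fell by 1.43 ± 0.19 (SE) on the log2 scale in cKO lenses (adjusted p = 0.0098), to 37.0% of its Control level, and was still detected in both cKO lenses. The 7 lens markers, among them crystallin genes, were detected on all 4 arrays. Their summed deposited intensity was 153190 and 145020 in cKO lenses and 242572 and 267735 in Control lenses. These sums include the authors' scaling, by a factor of 0.91 and 0.89 for the cKO arrays and 1.46 and 1.93 for the Control arrays. In the fit, their median log2 fold change was -0.22, and 6 of the 7 had a negative value, beside 5630 of 11516 genes. Bfsp2, a lens fiber filament gene, was called lower (-0.76 ± 0.14, limma, adjusted p = 0.0227), beside 5.64% of all genes. Lim2 (-0.48), Cryab (-0.24) and Cryaa (-0.22) were not called. Neither were Mip (-0.07), Crygs (-0.06) and Crybb2 (0.06), whose groups overlapped. The part of the lens markers in the values of the lipid genes was not tested. The cKO arrays were brighter, with 16261 and 16925 probes detected against 14542 and 14180 on the Control arrays. Transcripts linked to sex also differed between the groups: the signal of Xist was higher in cKO lenses by at least 6.09-fold, and Ddx3y, a Y-linked gene, was lower by a log2 difference of -3.09. Ddx3y was detected in both cKO lenses, with log2 signals of 6.81 and 4.82 against 8.99 and 8.82 in the Control lenses, and Y-linked Uty was detected in both cKO lenses (4.67 and 4.89) and in neither Control lens (4.47 and 4.52, adjusted p = 0.226). The sex of the mice is not in the labels, so genotype and sex cannot be told apart. Across all genes, 1341 were called (11.6%), with 692 higher (6.01%) and 649 lower (5.64%) in cKO lenses. The rule for a call joined 3 limits: an adjusted p below 0.05, a log2 change beyond 0.58 in either direction, and a log2 signal that averaged more than 4.6. In 32.6% of all genes both cKO lenses lay above both Control lenses, and in 29.7% both lay below.

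In cKO lenses, Acly, Acss2 and Elovl5 of the fatty acid arm rose, by 1.76-fold to 2.09-fold. Scd2 of the same arm fell to 62.8% of its Control level. Mvk of the sterol arm fell by at least 1.58-fold under the reported background correction and scaling. These 5 of the 30 tested members were called, 16.7% beside 11.6% of all genes. The calls were 4 of 8 in the fatty acid arm (3 higher, 1 lower), 1 of 17 in the sterol arm (lower) and 0 of 5 among the regulators. The count of 5.88% in the sterol arm lay below the background and that of 50% in the fatty acid arm above it, but the latter rests on 8 genes and the members were chosen with results known. Both arms held genes on either side of 0. The median log2 fold change was -0.10 over the sterol genes and 0.04 over the fatty acid genes, beside 0.01 over all genes.

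**Figure D1:**
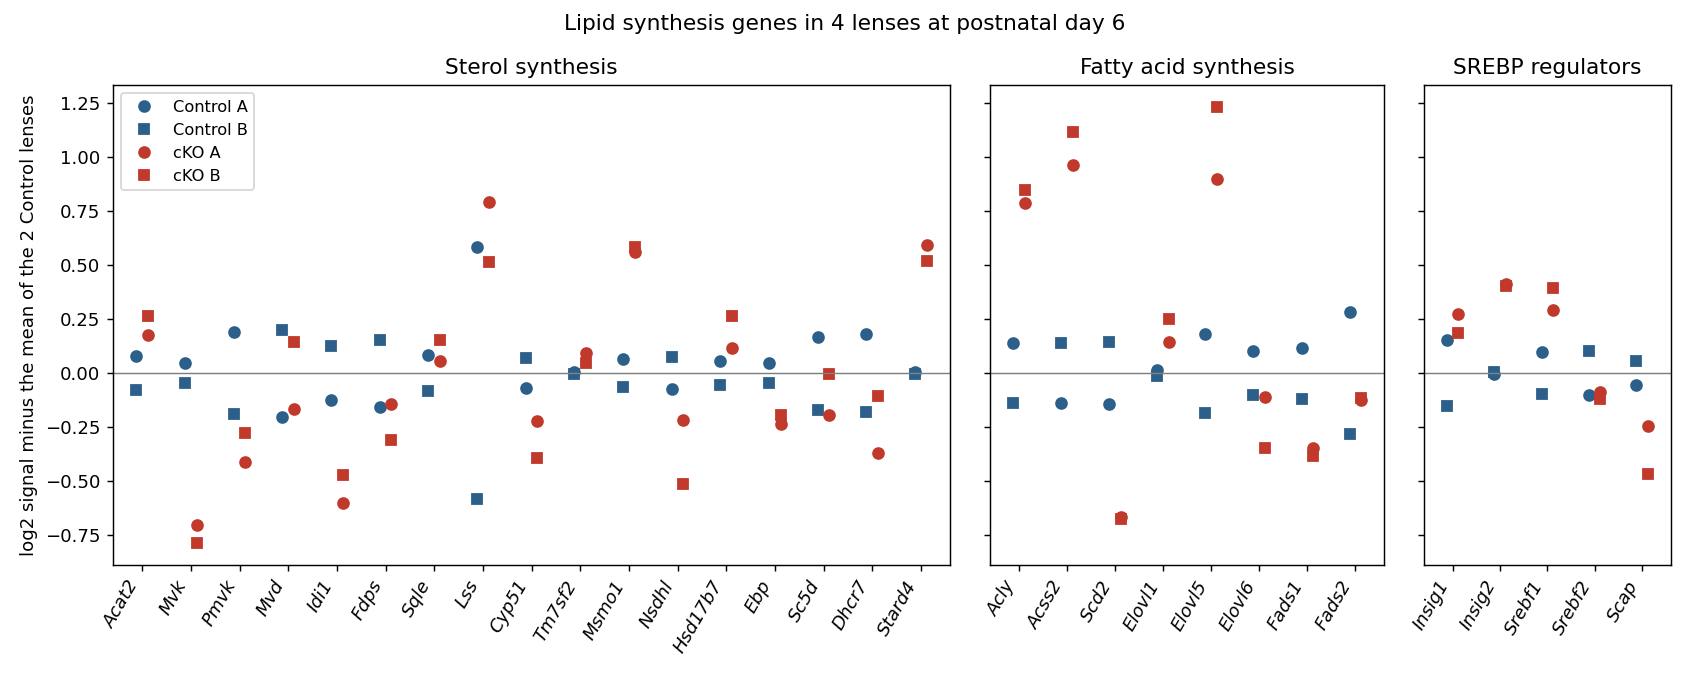
Each point is 1 lens: the vertical axis gives its normalized log2 signal minus the mean of the 2 Control lenses, for each tested gene of the sterol arm, the fatty acid arm and the regulators on the horizontal axis. Red points are cKO lenses, blue points Control lenses, circles replicate A and squares replicate B. Both cKO points of Elovl5, Acss2 and Acly lie above all Control points of their gene, those of Mvk and Scd2 below them, and the Control points of Lss lie far apart.

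In the fatty acid arm, the called genes were a pair that makes acetyl-CoA, 1 of the 3 tested elongases and a desaturase. Acss2, which makes acetyl-CoA from acetate, had log2 signals of 6.30 and 6.46 in the cKO lenses and 5.21 and 5.48 in the Control lenses. Both cKO lenses lay above both Control lenses by more than the spread within either group. The difference was a log2 fold change of 1.04 ± 0.16 (SE, n = 2 in each group, limma, adjusted p = 0.0132), a 2.05-fold rise. The value rests on the probe at chr2:155388240-155388289 in the files' coordinates, which name no genome build. A second Acss2 probe was detected in no sample.

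Acly, ATP citrate lyase, makes acetyl-CoA from the citrate that leaves the mitochondrion. Its log2 signals were 9.79 and 9.85 in the cKO lenses and 9.14 and 8.87 in the Control lenses. Acly rose by 0.82 ± 0.15 (SE, limma, adjusted p = 0.0223) on the log2 scale, or 1.76-fold. The cKO lenses were close together, and the gap to the Control lenses was wider than the distance between the Control lenses. The probe lies at chr11:100337806-100337855 in the files' coordinates.

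Elovl5 elongates polyunsaturated fatty acids. Its log2 signals were 7.94 and 8.28 in the cKO lenses and 7.23 and 6.86 in the Control lenses. Its rise of 1.06 ± 0.19 (SE, limma, adjusted p = 0.0193) on the log2 scale, or 2.09-fold, was the largest among the 30 members. Replicates spread more for this gene than for Acly, and the groups still did not overlap. The probe lies at chr9:77832073-77832122 in the files' coordinates.

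Scd2, a stearoyl-CoA desaturase that introduces a double bond into saturated chains, went the other way. Its log2 signals were 7.88 and 7.87 in the cKO lenses and 8.40 and 8.69 in the Control lenses. The fold change on the log2 scale was -0.67 ± 0.15 (SE, limma, adjusted p = 0.0366). The direction depended on the scaling: with background correction and no normalization between arrays the value was 0.19, when the median over all genes was 0.57, and relative to that median it was -0.38. The probe (chr19:44380437-44380486 in the files' coordinates) also had a bead standard error of 12.3% of its signal on the Control B array, and 7.77% to 9.09% on the other arrays.

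The other 4 fatty acid genes were not called. The log2 fold change was -0.36 ± 0.15 (adjusted p = 0.144) for Fads1 and -0.12 ± 0.20 (adjusted p = 0.713) for Fads2, the desaturases of polyunsaturated chains. Elovl6, which extends saturated chains, had a value of -0.23 ± 0.16 (adjusted p = 0.360), and Elovl1, which extends very long chains, 0.20 ± 0.14 (adjusted p = 0.361). In Fads1 and Elovl6 both cKO lenses lay below both Control lenses, in Elovl1 both lay above, and in Fads2 the groups overlapped. Over the arm, 4 genes had cKO lenses above and 3 below the Control lenses without overlap, beside 32.6% and 29.7% of all genes. Fads2 was detected in 3 of the 4 samples.

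In the sterol arm, Mvk was the single call. Mvk, mevalonate kinase, takes the first step after mevalonate has been formed. Its log2 signals were 4.53 and 4.45 in the cKO lenses and 5.28 and 5.19 in the Control lenses, and it was detected in both Control lenses and in neither cKO lens. The fall was therefore a bound of at least 1.58-fold (limma, adjusted p = 0.0210). Mvk passed the detection filter only through the Control lenses, where it was high, so that its p is no independent support, and with detection required in all 4 samples 0 of 15 sterol genes were called. Its signal lay near background throughout, and its value under other background corrections was -0.33, under the fold threshold. The call was also lost without cKO A (adjusted p = 0.0852), cKO B (adjusted p = 0.169) or Control B (adjusted p = 0.0541).

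Msmo1, the sterol C4-methyl oxidase that the files list as Sc4mol, and Stard4, a carrier that moves sterol between membranes, had the next smallest adjusted p-values of the arm. The log2 signals of Msmo1 were 8.02 and 8.05 in the cKO lenses and 7.52 and 7.40 in the Control lenses, which differ by 0.57 ± 0.14 (SE, limma) with an adjusted p of 0.0420. The log2 signals of Stard4 were 6.02 and 5.95 in the cKO lenses and 5.43 and 5.42 in the Control lenses, which differ by 0.56 ± 0.13 (SE, limma) with an adjusted p of 0.0427. Both passed the adjusted p and missed the fold threshold of 0.58, and in both the groups were apart by more than the spread within them.

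Lss, lanosterol synthase, which closes the sterol rings, had log2 signals of 6.15 and 5.87 in the cKO lenses and 5.94 and 4.78 in the Control lenses. Its difference of 0.65 ± 0.35 (SE, limma) on the log2 scale, with an adjusted p of 0.245, was smaller than the distance between the Control lenses. Without Control B it was 0.07, and without Control A it was 1.27 (adjusted p = 0.0203).

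**Figure D2:**
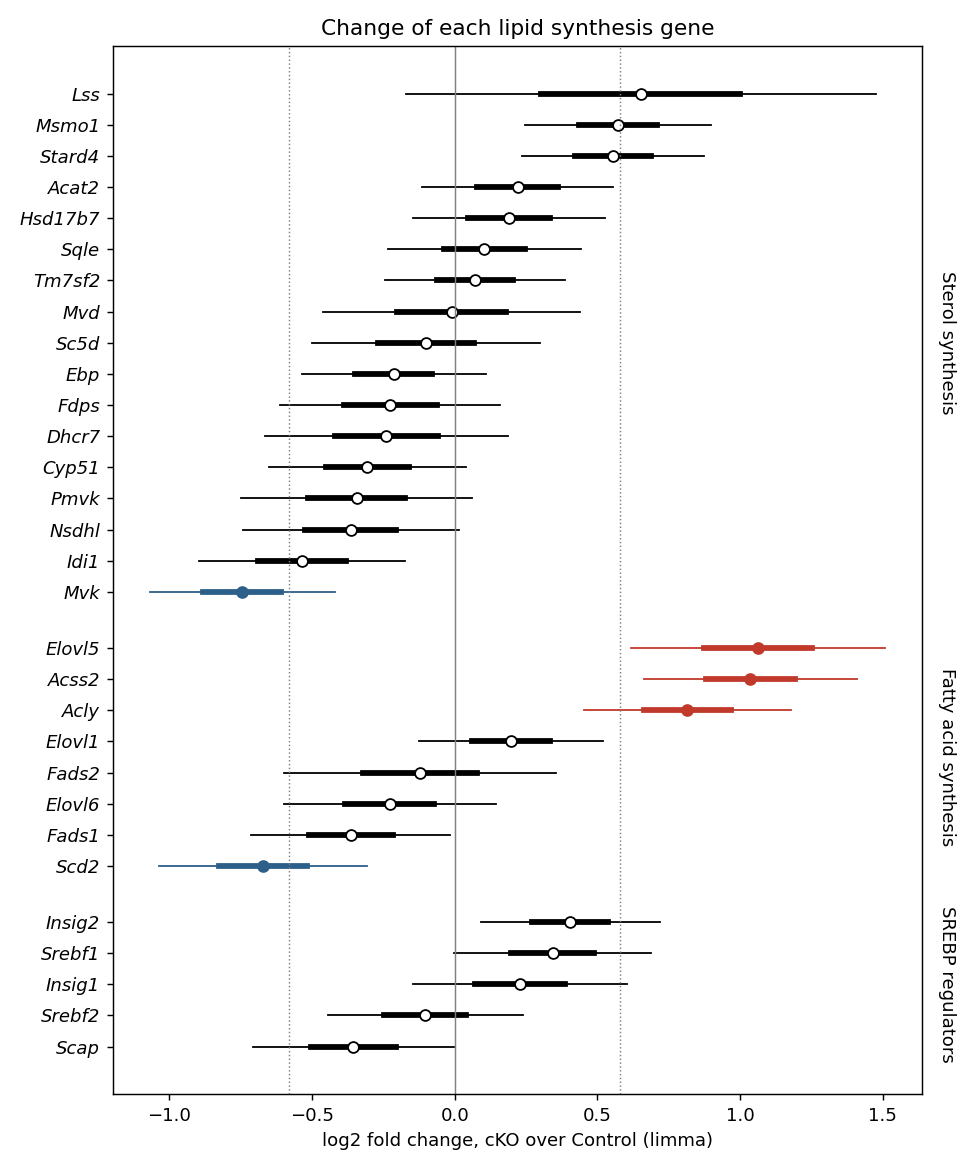
The horizontal axis gives the log2 fold change of cKO over Control lenses for each tested gene. Points are the limma estimates, thick bars the SE and thin bars the 95% confidence interval, dotted lines mark the fold threshold of 0.58 in either direction, and filled points are called genes (red higher, blue lower). The intervals of most sterol genes and regulators span 0, while the estimates for Elovl5, Acss2 and Acly lie between 0.82 and 1.06.

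Along the early sterol pathway, from acetoacetyl-CoA to farnesyl diphosphate, no gene other than Mvk passed the test. Idi1, which isomerizes the building block of all isoprenoids, had log2 signals of 4.52 and 4.65 in the cKO lenses and 4.998 and 5.25 in the Control lenses. Its log2 fold change of -0.54 ± 0.15 did not pass (limma, adjusted p = 0.0630), and the gene was detected in 1 cKO lens and both Control lenses. The values were -0.34 ± 0.17 for Pmvk and -0.23 ± 0.16 for Fdps. Mvd, which acts between Pmvk and Idi1, had a value of -0.01 ± 0.19, and Acat2, an acetoacetyl-CoA thiolase at the head of the pathway, 0.22 ± 0.14. Of these only Pmvk and Idi1 had both cKO lenses below both Control lenses, and only Acat2 had both above.

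Along the later steps, from squalene to cholesterol, the values ran in both directions. Sqle, squalene epoxidase, had a log2 fold change of 0.10 ± 0.14 and its groups overlapped. Cyp51, the lanosterol demethylase, had a value of -0.31 ± 0.15 (adjusted p = 0.198). Nsdhl, which acts beside Msmo1 in removing the C4 methyl groups, had a value of -0.36 ± 0.16 (adjusted p = 0.170), opposite in sign to Msmo1. Hsd17b7, the third enzyme of that step, had a value of 0.19 ± 0.14. The reductases Tm7sf2 and Dhcr7, the isomerase Ebp and the desaturase Sc5d had values from -0.24 to 0.07. None of these genes passed an adjusted p under 0.05. Nsdhl and Ebp are X-linked, and for them the difference in sex-linked transcripts between the groups cannot be told apart from genotype.

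Over the sterol arm, 7 genes had a positive and 10 a negative log2 fold change. Both cKO lenses lay above both Control lenses in 5 genes and below in 6, beside 32.6% and 29.7% of all genes. With no normalization between arrays, 8 of the 10 negative genes turned positive and the calls became 8 higher and 0 lower, when over all genes 5655 of 5788 calls were higher. With the arrays set to the same median they were 1 higher and 2 lower (Msmo1 against Mvk and Idi1), when 667 of 2690 calls over all genes were higher. The fatty acid calls under these scalings were 5 higher and 0 lower, and 3 higher and 1 lower. In the latter, Scd2 lost its call (-0.57, under the fold threshold) and the lower gene was Fads2 (-0.72, adjusted p = 0.0140).

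**Figure D3:**
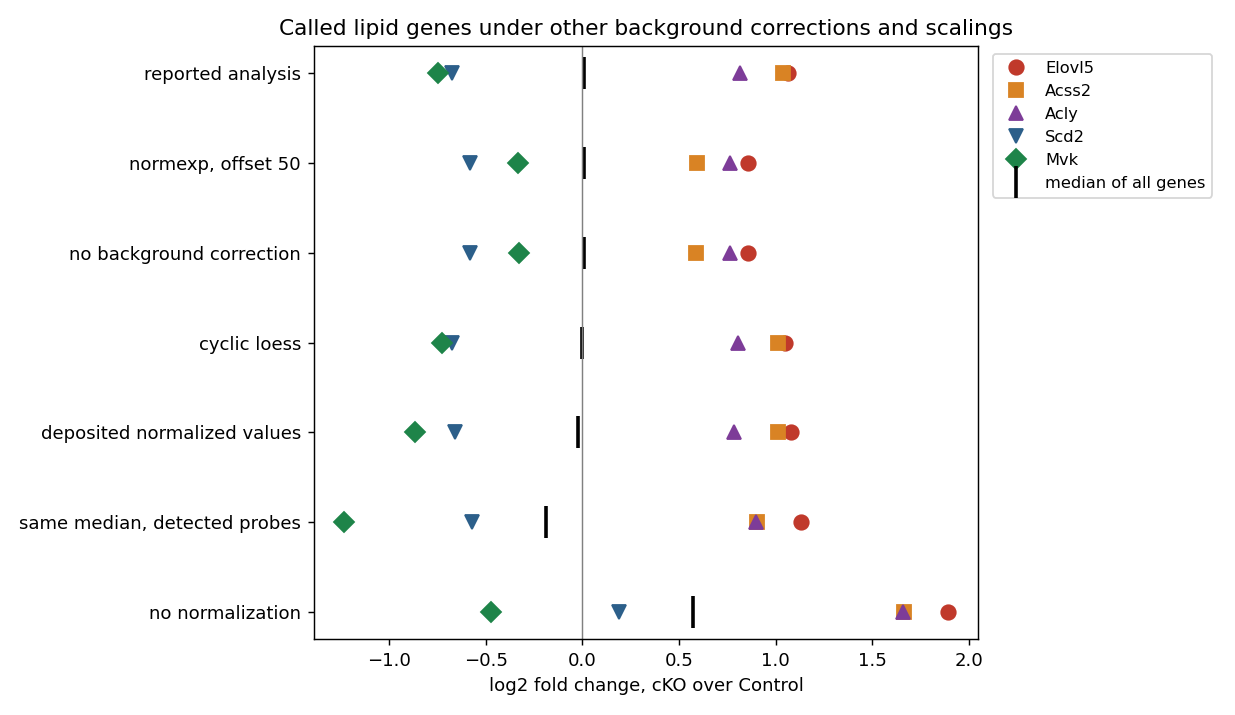
The log2 fold change of cKO over Control lenses (horizontal axis) is shown for the 5 called genes under the reported analysis and 6 other background corrections or scalings (rows), and the black bar marks the median of all 11516 genes in that row. Elovl5, Acss2 and Acly lie right of the bar in every row and Mvk and Scd2 left of it, but with no normalization the bar itself moves to 0.57 and Scd2 lies at 0.19.

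Acly, Acss2 and Elovl5 were higher under all 6 background corrections and scalings tried, at 0.76 to 1.66 for Acly, 0.59 to 1.66 for Acss2 and 0.86 to 1.89 for Elovl5. The calls depended on which lens was left out. Without cKO B none of the 4 fatty acid genes was called, with an adjusted p of 0.131 for Acly, 0.0944 for Acss2, 0.118 for Elovl5 and 0.187 for Scd2. Without Control B 1 was called (Acss2), without cKO A 2 (Acss2 and Elovl5), and without Control A all 4. The fold changes kept their sign each time.

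No regulator was called, and 2 of the 5 had an unadjusted p under 0.05, beside 3675 of 11516 genes. Srebf1, which encodes the SREBP that favours fatty acid genes, had log2 signals of 4.90 and 5.002 in the cKO lenses and 4.71 and 4.51 in the Control lenses, and only the cKO lenses gave a detected signal. It passed the detection filter only through the cKO lenses, so that its p is no independent support. The log2 fold change of Srebf1 was 0.34 ± 0.15 and was not called (adjusted p = 0.158), and with the arrays set to the same median it was -0.18. Srebf2, which encodes the SREBP that favours sterol genes, had log2 signals of 6.08 and 6.04 in the cKO lenses and 6.06 and 6.27 in the Control lenses, a log2 fold change of -0.10 ± 0.14 (adjusted p = 0.657). The cKO and Control lenses overlapped for Srebf2 and did not for Srebf1. Scap, the escort, had log2 signals of 5.56 and 5.34 in the cKO lenses and 5.74 and 5.86 in the Control lenses, a log2 fold change of -0.35 ± 0.15 (adjusted p = 0.154), which was 0.23 with no normalization between arrays.

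Insig1 and Insig2, which retain Scap, had positive values. Insig1 had log2 signals of 6.14 and 6.05 in the cKO lenses and 6.02 and 5.71 in the Control lenses, a log2 fold change of 0.23 ± 0.16 (adjusted p = 0.360). Insig2 had log2 signals of 7.88 and 7.87 in the cKO lenses and 7.47 and 7.48 in the Control lenses, a log2 fold change of 0.41 ± 0.13 (adjusted p = 0.0889). The 2 detected probes of Insig2 disagreed. The probe at chr1:123201414-123201463 in the files' coordinates had log2 signals of 8.04 and 7.86 in the cKO lenses and 7.11 and 7.21 in the Control lenses, with a log2 fold change of 0.79 ± 0.16 and an adjusted p of 0.0238 over all probes. The probe at chr1:123203465-123203514 had a log2 fold change of 0.02 ± 0.16. With no normalization between arrays, Insig1 and Insig2 were called higher. The mean over both probes is the value of the gene, and neither the files nor the tables used here tell which transcript each probe reads.

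**Figure D4:**
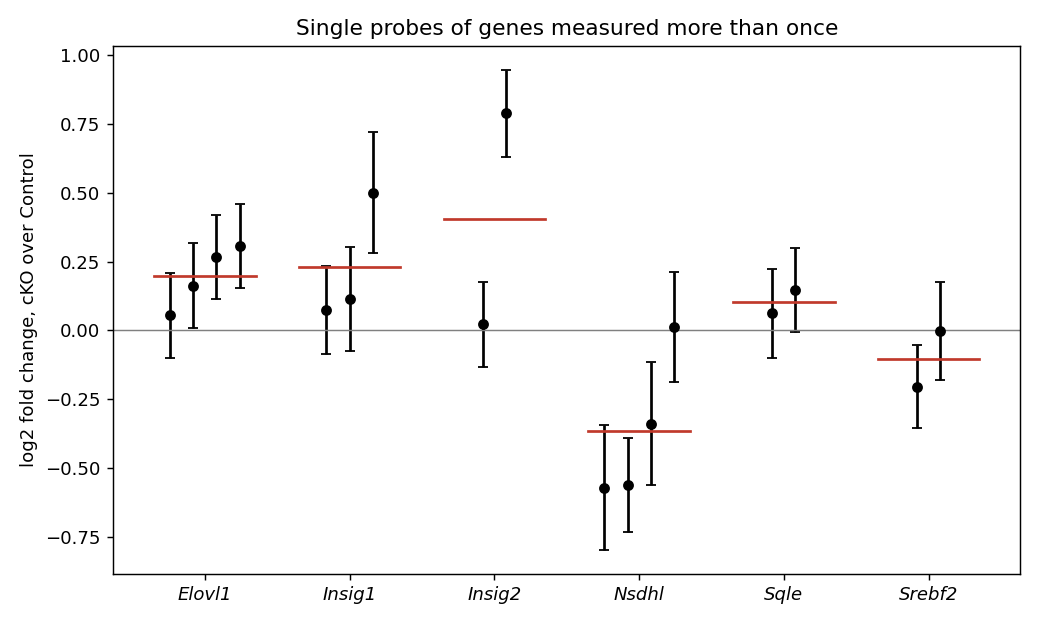
For the 6 genes with more than 1 detected probe, points give the log2 fold change of cKO over Control lenses for each probe, bars the SE, and the red line the value of the gene. The probes of Elovl1, Sqle and Srebf2 lie within their errors of each other, while those of Insig2 lie at 0.02 and 0.79 and those of Nsdhl between -0.57 and 0.01.

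Genes next to the members in lipid metabolism were read from lists, which together held 16 called genes of 84 tested (19%), beside 11.6% of all genes. Of these 16, Apoe, Dgat1, Cpt1b and Elovl2 passed the detection filter only through the group where they were high, so that their p-values are no independent support. Of 18 further fatty acid synthesis genes tested, 4 rose and 1 fell (27.8%, beside 11.6%). Thrsp, the thyroid hormone responsive Spot 14 protein that promotes lipid synthesis, had log2 signals of 8.40 and 9.24 in the cKO lenses and 6.14 and 5.96 in the Control lenses. Its log2 fold change was 2.77 ± 0.27 (SE, limma, adjusted p = 0.0042), and both cKO lenses stood far above both Control lenses. Mid1ip1, its paralog and a partner of acetyl-CoA carboxylase, rose by 0.62 ± 0.14 on the log2 scale (adjusted p = 0.036), but was called under 4 of the 6 other background corrections and scalings and in 0 of the 4 fits with a lens left out. Slc25a1, the carrier that exports citrate from the mitochondrion for Acly, had log2 signals of 7.62 and 7.48 against 6.02 and 6.56, a log2 fold change of 1.26 ± 0.20 (adjusted p = 0.014). Hsd17b12, which acts in each cycle of chain elongation, rose by 0.91 ± 0.18 on the log2 scale (adjusted p = 0.025). Elovl2, which acts on polyunsaturated chains after Elovl5, was detected in no cKO lens and fell by at least 1.35-fold (adjusted p = 0.031), a call made under 1 of the 6 other background corrections and scalings. Elovl4, another elongase, had a log2 fold change of -0.27 ± 0.14 (adjusted p = 0.233).

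Of 16 genes of triglyceride and phospholipid synthesis tested, 1 rose and 2 fell (18.8%, beside 11.6%). Dgat2, which adds the last acyl chain of a triglyceride, fell by 1.19 ± 0.17 on the log2 scale (adjusted p = 0.011), and Lpin1, the phosphatidate phosphatase that acts just before it, fell by 1.17 ± 0.17 (adjusted p = 0.011). Dgat1, which catalyses the same last step as Dgat2, was detected in no Control lens, and its cKO signal was higher by at least 1.21-fold (adjusted p = 0.024). Its call was made under 3 of the 6 other settings, and with the arrays set to the same median its log2 fold change was 0.17 (adjusted p = 0.445). Of 11 genes of fatty acid oxidation, 2 were called (18.2%, beside 11.6%). Cpt2 of the mitochondrial import of acyl chains fell by 0.96 ± 0.16 on the log2 scale (adjusted p = 0.017), and Cpt1b of the same import was at least 1.41-fold higher (adjusted p = 0.023), having been detected in no Control lens. The call of Cpt1b was made under 3 of the 6 other settings, and its value with the arrays set to the same median was 0.28 (adjusted p = 0.191).

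Of 7 further sterol genes reported here, 1 rose and none fell (14.3%, near the 11.6% of all genes): Pgrmc1, a haem-binding partner of sterol-processing P450 enzymes, by 0.91 ± 0.20 on the log2 scale (adjusted p = 0.031). Of 9 genes that process or turn over SREBPs, 0 were called by limma, beside 11.6% of all genes. An unadjusted p under 0.05 was reached by 1 (Nploc4), beside 3675 of 11516 genes. The log2 fold change of Nploc4 was 0.54 ± 0.14 (limma, adjusted p = 0.049), under the fold threshold.

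Of 12 genes of sterol uptake, transport and efflux tested, 3 rose and 1 fell (33.3%, beside 11.6%). Apoe, a carrier of cholesterol between cells, had log2 signals of 5.70 and 6.42 in the cKO lenses and 4.596 and 4.295 in the Control lenses. It was detected in no Control lens and was at least 2.50-fold higher under the reported background correction and scaling (limma, adjusted p = 0.014). With no background correction its log2 fold change was 0.82, which is less than that bound. Npc2, which hands on cholesterol in the lysosome, rose by 0.81 ± 0.19 on the log2 scale (adjusted p = 0.040), and Osbpl2, a lipid transfer protein, by 0.64 ± 0.15 (adjusted p = 0.040). Osbp, which carries sterol from the endoplasmic reticulum to the Golgi, fell by 1.02 ± 0.21 (adjusted p = 0.029). In the isoprenoid branch, which leaves the sterol pathway at farnesyl diphosphate, 1 of 11 genes was called (9.09%, beside 11.6%): Coq2 of ubiquinone synthesis fell by 1.03 ± 0.17 (adjusted p = 0.014). Mid1ip1 and Pgrmc1 are X-linked, as Nsdhl and Ebp are. With no detection filter, when 28851 genes were tested, Thrsp, Slc25a1, Hsd17b12 and Apoe were not called. That setting averages in probes that failed the filter. The log2 fold change became 1.33 for Thrsp, 0.48 for Hsd17b12, -0.57 for Lpin1 and -0.57 for Osbp. All 16 genes kept their direction under the 6 background corrections and scalings, 4 were called under each of them (Thrsp, Slc25a1, Hsd17b12 and Apoe), and 1 (Thrsp) was called without each lens in turn. Another 2 (Mid1ip1 and Osbpl2) were called in none of the 4 fits that left out a lens, and the other 13 in 1 to 3 of them.

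**Figure D5:**
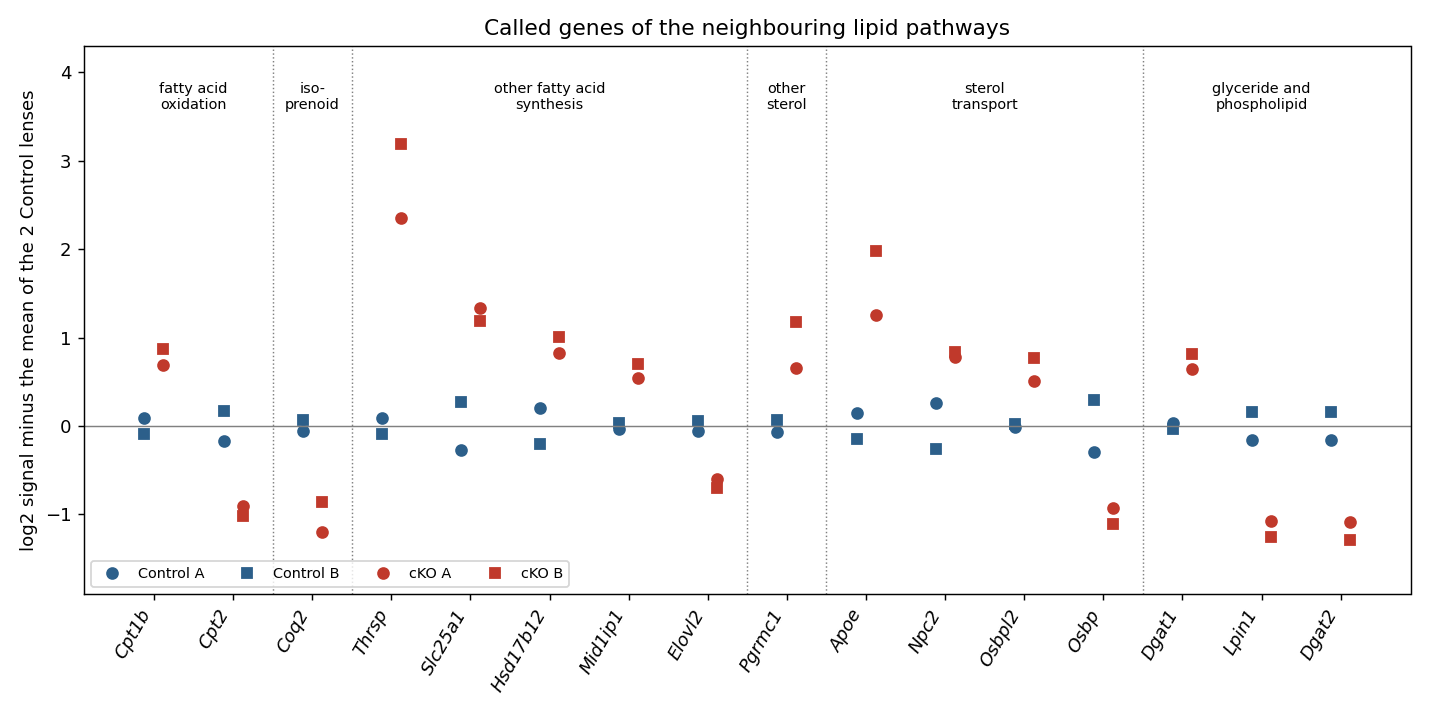
Each point is 1 lens of the 16 called genes outside the list of members: the vertical axis gives its normalized log2 signal minus the mean of the 2 Control lenses, and dotted lines part the pathways named at the top. Red points are cKO lenses, blue points Control lenses, circles replicate A and squares replicate B. Thrsp stands above all others, with a log2 fold change of 2.77, and Dgat2, Lpin1, Coq2 and Osbp have cKO points around -1.

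Other cell types in a dissected lens could carry lipid genes. Of 6 adipocyte markers, 1 or 2 were detected on each array, with a summed deposited intensity of 49.8 and 38.2 in cKO lenses and 42.6 and 52.7 in Control lenses, and 0 of 3 muscle markers were detected on any array. Of 4 macrophage markers, 2 and 4 were detected in cKO lenses and 1 and 2 in Control lenses, with summed intensities of 60.8 and 72.7 against 55.1 and 86.1. Of the 2 tested, Cd68 was called higher, by at least 1.26-fold (adjusted p = 0.0376), but it was detected in no Control lens and passed the filter only through the cKO lenses, so that its p is no independent support. Aif1, the other, had a log2 fold change of -0.06 ± 0.14 (adjusted p = 0.791) and its groups overlapped. Of 6 retina and pigment cell markers, 2 were detected in cKO B and 0 in each other lens. The summed intensity of 3 blood markers was 1056 and 460 in cKO lenses and 806.3 and 641.3 in Control lenses. Of 3 vessel markers none was called, with values of 0.58 for Cdh5 and -0.59 for Kdr (adjusted p = 0.0823 and 0.0516), and of 3 Schwann cell and glia markers 1 was detected, in cKO A alone. Of the lens epithelium markers, 4 of 5 were detected on every array, and 2 of the 4 tested were called lower, beside 5.64% of all genes: Foxe3 (-0.79 ± 0.14, adjusted p = 0.0176) and Pdpn (-0.72 ± 0.15, adjusted p = 0.0298). Cdh1 (-0.54, adjusted p = 0.128) and Gja1 (-0.22, adjusted p = 0.592, groups overlapping) were not called. The 4 had a median log2 fold change of -0.63. The summed deposited intensity of the 5 was 1609.5 and 1835.1 in cKO lenses and 2632.3 and 2363.9 in Control lenses. All sums given here include the authors' scaling, by 0.91 and 0.89 for cKO and 1.46 and 1.93 for Control arrays. The part of these cell types in the values of the lipid genes was not tested. In RNA of a whole lens, fewer cells of a type and less RNA per cell cannot be told apart.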

How the data were processed

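Gene expression of 4 lenses from mice at postnatal day 6 was used, with 2 Celf1 cKO and 2 Control arrays. Signal intensity was deposited by the authors in unnormalized form and after scaling, which per the file headers followed the rank-invariant method. The deposited tables also gave a detection p-value for each probe (its rank among negative control beads) and the bead number and the bead standard error of the signal. Of 45281 probes, 18 lines with shifted cells were left out. Probe names were brought up to date through a RefSeq table (GRCm38.p6), but members were matched by the symbols in the files.

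The unnormalized intensity was background corrected, quantile normalized and turned to log2 by the neqc function (limma 3.58.1 under R 4.3.3, offset 16). A probe was kept when detected at p below 0.05 on 2 or more arrays (16262 probes), and the log2 values of probes of a gene were averaged, which gave 11516 genes. Groups were compared with lmFit and eBayes, in two-sided tests whose p-values were adjusted by Benjamini-Hochberg across the 11516 genes. The study used edgeR, a model for counts, which was not applied to intensity here. The thresholds of fold, adjusted p and signal are those of the methods. An exact permutation test with 2 against 2 lenses cannot go below p = 0.333. For a gene detected in no lens of a group, a bound was formed. It set the brighter mean over the lowest signal of detected probes, or over the gene's own where that was higher. Such a bound holds for the reported background correction and scaling only. The number of arrays limits the precision.

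The members and lists were chosen with earlier results of these data known. Full values are given for called members, the 3 members of each arm with the largest change, and the regulators, and of the related lists the called genes. Nploc4, Elovl4, Uty, the lens markers and the markers Cd68, Aif1, Foxe3, Pdpn, Cdh1, Gja1, Cdh5 and Kdr were named after their values were seen. Some genes of the further sterol list are not reported here and are left out of its counts. The script was tested on simulated data. Alternatives covered background correction, normalization, detection filter, probe rule, fold threshold, variance model, the replicate letter as a block, and each lens left out in turn. Tables were read with Python version 3.11.15.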

Additional observations from a re-analysis of the deposited data

How the results depend on the processing

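The number of arrays, with 2 lenses in each group, limits the precision. The count of called sterol genes (1) was 0 with normexp at an offset of 50, with no background correction and with detection required in all 4 samples, 3 with the deposited normalized intensity, with the arrays set to the same median and with no fold threshold, and 8 with no normalization between arrays. Leaving out each lens in turn gave 0 to 4 called sterol genes, 0 to 4 called fatty acid genes and 0 to 0 called regulators. The count of called fatty acid genes (4) was 0 with no detection filter, when 28851 genes were tested, and that of regulators (0) was 2 with no normalization. Under the other alternatives these counts stayed within 1.5 times their value. Over all genes the 1341 calls became 725 with normexp at an offset of 50, 718 with no background correction, 5788 with no normalization, 2690 with the same median, 207 with no detection filter, and 185 to 1557 with a lens left out.

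Of 492 values of single genes under an alternative, 429 kept their direction and their side of the threshold, 19 passed it only there, 21 no longer passed and 23 changed sign. With no normalization, the median of all genes was 0.57 and the log2 fold change became 0.39 for Pmvk, 0.76 for Mvd, 0.62 for Fdps, 0.55 for Cyp51, 0.19 for Nsdhl, 0.49 for Ebp, 0.20 for Sc5d, 0.37 for Dhcr7, 0.19 for Scd2, 0.59 for Elovl6, 0.49 for Fads1, 0.035 for Fads2, 0.57 for Srebf2 and 0.23 for Scap. With the same median it became 0.00046 for Mvd, -0.34 for Tm7sf2 and -0.18 for Srebf1, with the deposited normalized intensity -0.013 for Tm7sf2, and with no detection filter 0.0022 for Fads2. With a lens left out, Mvd ranged from -0.21 to 0.20 (0.14 without cKO A), Sc5d from -0.30 to 0.072 and Fads2 from -0.46 to 0.17, positive without Control A for the latter pair. The cause was not tested. Acss2 had a value of 0.52 with no detection filter, which averages in its undetected probe.

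The replicate letters are shared by the groups, but lenses of the same letter did not deviate together (correlation of the differences between A and B -0.0111 over 11516 genes). The fit with a replicate block gave 1685 calls over all genes, and called 1 sterol gene, 4 fatty acid genes and 0 regulators. A slide block was not run, since the files used here name no slide.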
